A study of Caenorhabditis elegans with 12 samples.

Results

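The CREB, calcineurin and calmodulin kinase genes of Caenorhabditis elegans were followed through 4 strains at the L4 larval stage. The set comprised 8 named genes, crh-1, crh-2, tax-6, cnb-1, rcn-1, cmk-1, ckk-1 and unc-43, out of 17118 genes that had a probe set of their own on the array. rcn-1 is listed under its present name rcan-1 (F54E7.7) in the gene table and is called rcan-1 here. Every probe set annotated to 1 of these genes and to no other was kept, which gave 23 probe sets of 22625 on the array. Levels are the deposited log2 values, and each change is a difference of log2 values between strains.

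Calcineurin is a calcium-activated protein phosphatase built from a catalytic subunit, TAX-6, and a calcium-binding regulatory subunit, CNB-1, and RCAN-1 is a protein that binds and regulates it. CKK-1 activates the calmodulin-dependent kinase CMK-1, which lies upstream of the transcription factor CREB, encoded by crh-1, in worm neurons. UNC-43 is the CaM kinase II of the worm, and crh-2 encodes another bZIP protein of the CREB class. Calcineurin and the energy-sensing kinase AMPK act in opposite directions on CRTC-1, the coactivator of CREB, and much of this control works through phosphorylation, which RNA levels do not measure.

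The crh-1 null samples carried the allele nn3315, and the tax-6 null samples were strain RB1667 with the allele ok2065. The aak-2 o/e samples were strain AGD383, in the N2 background, with the integrated transgene uthIs202, in which the aak-2c promoter drives a Tomato fusion of AAK-2, a catalytic AMPK subunit, that spans its amino acids 1 to 321, with the unc-54 3'UTR and the marker rol6. WT was N2. Each strain gave 3 pools of 3000 whole animals, grown on OP50 bacteria, with 1 Affymetrix array per pool.

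Across probe sets, the correlation between arrays of a strain was 0.99 to 0.998, and the lowest values were those of tax-6 null replicate 1 with its 2 fellow arrays (0.99 and 0.992), while the other pair of that strain reached 0.997. On each array, 57.2% to 58.1% of probe sets reached a log2 value of 4. RNA of aak-2 itself was not higher in the samples labelled aak-2 o/e. Its probe set 190604_at averaged 6.44 ± 0.15 in aak-2 o/e and 6.91 ± 0.1 in WT (SD, n = 3 each; limma adjusted p = 0.0129), and 175364_at averaged 8.59 ± 0.26 in aak-2 o/e and 9 ± 0.33 in WT (adjusted p = 0.126). These samples are called aak-2 null in their source name, whereas their title and strain fields describe overexpression, so aak-2 o/e stands below for the samples of that label. Probe positions with respect to the deleted or transgenic stretches are unknown here. Marker genes of body wall muscle (9 of 9 listed), epidermis (7 of 7), intestine (6 of 7), germline and sperm (9 of 9) and neurons (12 of 14) were bright enough to test. Of 10 markers of the AFD and AWC sensory neurons, where tax-6 and cmk-1 are known to act, only ttx-1 was. In whole animals, fewer cells of a type and less RNA per cell cannot be told apart.

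Not every gene of the set could be measured. Testing required 3 or more arrays at a log2 value of 4 or above, which 10 of the 23 member probe sets met. They covered 5 of the 8 genes: crh-1 with 1 probe set, crh-2 with 3, cnb-1 with 2, rcan-1 with 1 and unc-43 with 3. No probe set of tax-6, cmk-1 or ckk-1 passed. Of the 13 dim probe sets, 11 stayed below 4 on all 12 arrays, and 7 spanned less than 0.1 from the lowest array to the highest.

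Both probe sets of cmk-1 lay at the bottom of the scale, between 2.11 and 2.15 on all 12 arrays. The kinase kinase gene ckk-1 had 1 probe set between 2.12 and 2.13 and another, 188081_at, between 3.66 and 4.37. On 188081_at, 9 of the 12 arrays lay within 0.02 of 3.88, and only crh-1 null replicate 1 exceeded 4. A second crh-1 probe set, 181128_at, stood at 2.12 on every array, so it measured no difference between strains. The dim crh-2 probe set 187831_at ranged from 2.13 to 2.27. For unc-43, 3 of the 6 dim probe sets lay between 2.11 and 2.13, and the others ranged from 2.7 to 3.37.

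The only probe set of tax-6, 192749_at, read 3.43, 3.32 and 2.98 in tax-6 null. It read 3.6, 3.55 and 3.55 in crh-1 null, 3.45, 3.65 and 3.91 in aak-2 o/e, and 4.02, 3.55 and 3.55 in WT. The 3 tax-6 null arrays were the lowest of the 12, but by little: the highest of them read 3.43 and the lowest other array, of aak-2 o/e, 3.45. In a fit without the filter the difference between tax-6 null (3.24 ± 0.24) and WT (3.71 ± 0.27) did not pass (SD, n = 3 each; limma adjusted p = 0.0843). With this probe set added alone to the tested ones, a choice made after earlier results were known, it did (adjusted p = 0.0376). Because of that choice, no conclusion is drawn from this pass. No fold is read from a probe set that did not pass the filter. In the fit without the filter, 0 of the 13 dim probe sets passed in any of the 6 comparisons of strains.

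**Figure D1:**
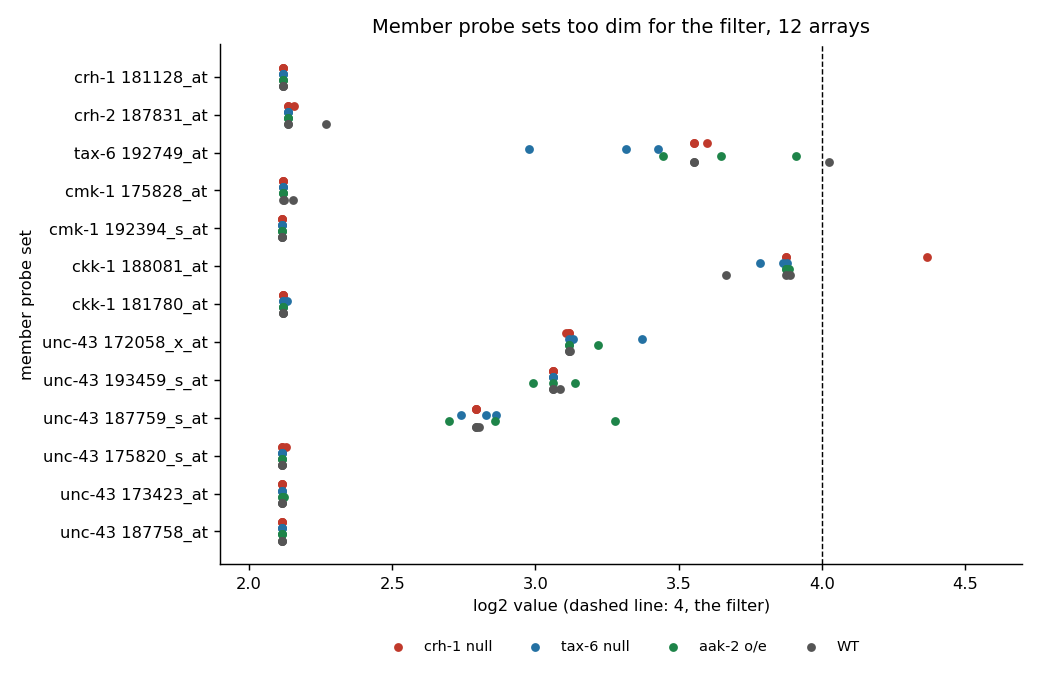
Log2 values (horizontal axis) of the 13 member probe sets too dim for the filter, on 12 arrays, coloured by strain, with 3 points per strain. The dashed line marks the filter at 4, which only ckk-1 188081_at and tax-6 192749_at crossed, on 1 array each.

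Of the 5 tested genes crh-1 had the widest span of strain means, and its level was higher, not lower, in the strain that carries its mutation. The probe set 189423_s_at read 8.61, 8.43 and 8.81 in crh-1 null. It read 7.66, 7.25 and 7.43 in tax-6 null. The values were 6.84, 6.5 and 6.91 in aak-2 o/e and 7.06, 7.18 and 7.24 in WT. Every crh-1 null array lay above all 9 arrays of the other strains, and every aak-2 o/e array lay below all of them. The level averaged 8.62 ± 0.19 in crh-1 null and 7.16 ± 0.09 in WT (SD, n = 3 each), a log2 change of 1.46 ± 0.15 (SE), or 2.75-fold, with a limma adjusted p of 1.57e-05. Of all probe sets tested, 5.96% changed by more in that comparison. Across the 20 alternative settings the change stayed between 1.36 and 1.55 and the adjusted p at or below 0.000297. The suffix _s marks probes that can bind more than 1 transcript, and the gene table lists 7 RefSeq transcripts for crh-1.

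The order of crh-1 levels was crh-1 null, tax-6 null, WT and aak-2 o/e. The step between crh-1 null and tax-6 null passed (1.17 ± 0.15, adjusted p = 8.28e-05). The tax-6 null arrays all lay above the WT arrays, but the difference did not pass (log2 change 0.29, 95% interval -0.04 to 0.61, limma adjusted p = 0.143). Nor did aak-2 o/e differ from WT past the threshold (-0.41 ± 0.15, limma adjusted p = 0.0546), although its arrays were lower in 3 of 3. That difference passed with array weights (adjusted p = 0.0206), with the replicate number as a block (0.0397), and without tax-6 null replicate 1 or 2 or the third aak-2 o/e array (0.0318, 0.0474 and 0.0475). In the other 15 of the 20 settings it did not pass, with a limma adjusted p of up to 0.187. Here and below, leaving out an array of a strain outside a comparison leaves the log2 change as it is and alters only the p-value. Between the strains at the ends of the order, crh-1 null was higher than aak-2 o/e by 1.87 ± 0.15 (3.66-fold, adjusted p = 8.2e-07). tax-6 null was higher than aak-2 o/e by 0.7 ± 0.15 (1.62-fold, adjusted p = 0.00206).

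**Figure D2:**
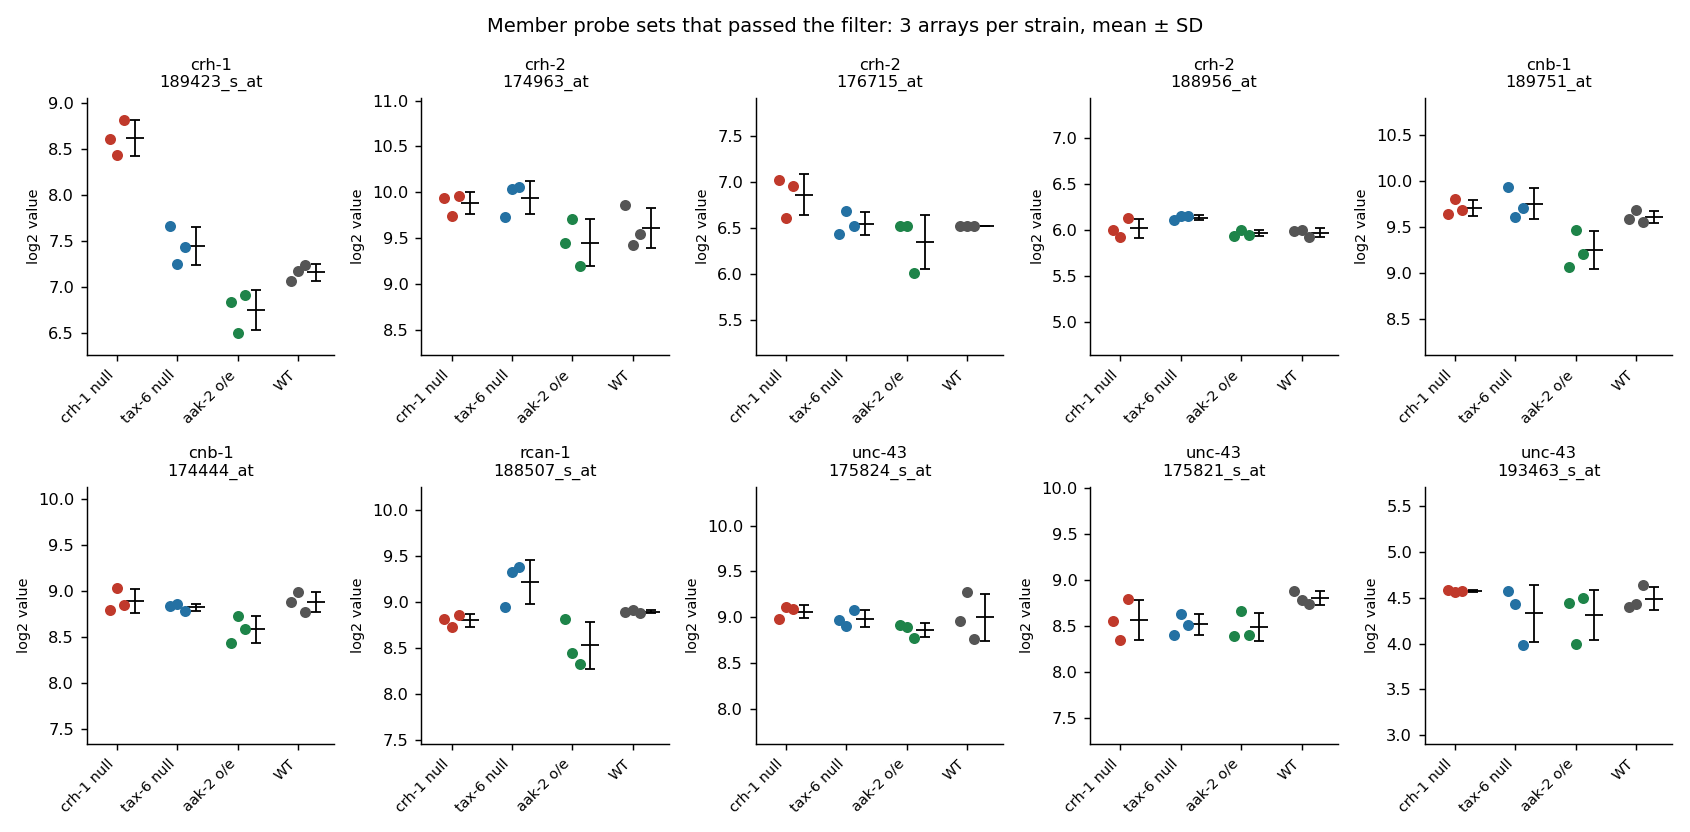
Log2 values (vertical axes, each spanning the same 2.8 log2 units) of the 10 tested member probe sets. Points are the 3 arrays of a strain, replicates 1 to 3 from left to right, and the bar beside them is the mean ± SD. The crh-1 panel separates crh-1 null, at 8.43 to 8.81, from all other arrays, while in the unc-43 panels no strain stands apart from all the others.

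The other CREB-class gene, crh-2, moved less, and its probe sets did not all show the same differences. The brightest, 174963_at, read 9.93, 9.75 and 9.96 in crh-1 null and 9.74, 10.04 and 10.06 in tax-6 null. It read 9.45, 9.71 and 9.2 in aak-2 o/e, and 9.86, 9.43 and 9.55 in WT. The crh-1 null and tax-6 null arrays lay above all aak-2 o/e arrays and overlapped with WT. tax-6 null was higher than aak-2 o/e (0.49 ± 0.16, adjusted p = 0.0228), and so was crh-1 null (0.43 ± 0.16, adjusted p = 0.0447). The first call ended without tax-6 null replicate 2 or 3 or aak-2 o/e replicate 1 or 3 (adjusted p = 0.0522 to 0.0971), without the filter (0.0515) and with only the strains compared (0.0618). The second ended without any single one of 8 arrays: WT replicate 3, each crh-1 null array, tax-6 null replicates 2 and 3, and aak-2 o/e replicates 1 and 3 (adjusted p = 0.0501 to 0.17). It also ended with quantile normalization, without the filter, with only the strains compared and with the replicate block (limma adjusted p = 0.0524, 0.0909, 0.0537 and 0.0754). Against WT, the log2 changes of this probe set were 0.27 for crh-1 null, 0.33 for tax-6 null and -0.16 for aak-2 o/e, and none passed (limma adjusted p = 0.3, 0.114 and 0.473), though that of tax-6 null did with array weights (adjusted p = 0.0466).

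The probe set 176715_at of crh-2 was higher in crh-1 null (6.86 ± 0.22) than in aak-2 o/e (6.35 ± 0.29; SD, n = 3 each), a log2 change of 0.51 ± 0.16 (limma adjusted p = 0.0189). The call ended without crh-1 null replicate 1 or 3 or aak-2 o/e replicate 3 (limma adjusted p = 0.0675 to 0.0751), and with only the strains compared (0.0605). On 6 of the 12 arrays this probe set lay within 0.02 of 6.52. The 3 WT arrays were among them, so the WT spread of 0.002 is not that of a freely varying level. aak-2 o/e replicates 1 and 2 were among them too, so the lower aak-2 o/e mean rests on replicate 3, at 6.01. Against WT the crh-1 null arrays were higher in 3 of 3 without passing (0.34 ± 0.16, limma adjusted p = 0.164; 0.0472 with array weights). The third, 188956_at, ranged only from 5.92 to 6.15 and passed in none of the 6 comparisons. All 3 tax-6 null arrays lay above the WT and aak-2 o/e arrays there, and without the filter on dim probe sets both differences passed (log2 change 0.16 from WT and 0.17 from aak-2 o/e, adjusted p = 0.04 and 0.0278).

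Of the calcineurin genes, the regulatory subunit gene cnb-1 stood lowest in aak-2 o/e by both of its probe sets. The probe set 189751_at read 9.07, 9.47 and 9.21 in aak-2 o/e. Its values were 9.64, 9.81 and 9.68 in crh-1 null, 9.94, 9.61 and 9.71 in tax-6 null, and 9.59, 9.68 and 9.56 in WT. No aak-2 o/e array overlapped with an array of another strain, and the other strains overlapped with each other. Against WT the log2 change was -0.36 ± 0.13, or 1.28-fold lower (limma adjusted p = 0.0481). That call lies at the edge of the threshold and ended without any single one of 9 arrays: each WT and each crh-1 null array, tax-6 null replicate 3, and aak-2 o/e replicates 1 and 3 (adjusted p = 0.0584 to 0.159). It also ended with quantile normalization, with arrays centred on their medians, without the filter, with only the strains compared, and with the replicate block (adjusted p = 0.0521, 0.062, 0.0677, 0.0647 and 0.0735).

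Between altered strains, cnb-1 differed as follows. By 189751_at, tax-6 null was higher than aak-2 o/e by 0.51 ± 0.13 (1.42-fold, adjusted p = 0.00556), and crh-1 null was higher than aak-2 o/e by 0.46 ± 0.13 (1.38-fold, adjusted p = 0.0107). Both passed under all 20 alternatives, with adjusted p up to 0.0393 and 0.0442. The other probe set, 174444_at, read 8.44, 8.73 and 8.59 in aak-2 o/e and 8.88, 8.99 and 8.77 in WT, again without overlap, but the change did not pass (-0.29 ± 0.11, limma adjusted p = 0.065; 0.0425 without aak-2 o/e replicate 2). It was higher in crh-1 null than in aak-2 o/e (0.31 ± 0.11, adjusted p = 0.0426), a call that ended without any single one of 7 arrays: WT replicate 1, crh-1 null replicates 2 and 3, tax-6 null replicates 2 and 3, and aak-2 o/e replicates 1 and 3 (adjusted p = 0.0511 to 0.159). It was also lost with array weights (log2 change 0.24, limma adjusted p = 0.0692) and with only the strains compared (0.0703). In the strain without functional TAX-6 by its label, cnb-1 did not differ from WT past the threshold. The intervals of the log2 change, tax-6 null minus WT, were -0.13 to 0.42 for 189751_at and -0.3 to 0.19 for 174444_at.

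rcan-1, the calcineurin regulator gene, was the calcineurin gene with the widest span of strain means, with its highest mean in tax-6 null and its lowest in aak-2 o/e. It read 8.94, 9.32 and 9.39 in tax-6 null and 8.82, 8.45 and 8.33 in aak-2 o/e. It read 8.81, 8.72 and 8.86 in crh-1 null and 8.89, 8.91 and 8.88 in WT. Every tax-6 null array lay above the 9 others, and every aak-2 o/e array lay below WT. tax-6 null was higher than aak-2 o/e by 0.69 ± 0.15, or 1.61-fold (limma adjusted p = 0.00195, and up to 0.0249 over the 20 alternatives). For comparison, 31.6% of probe sets tested differed by more between these strains.

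Neither strain alone differed from WT past the threshold in rcan-1. The log2 change was 0.32 ± 0.15 in tax-6 null (limma adjusted p = 0.0946) and -0.36 ± 0.15 in aak-2 o/e (limma adjusted p = 0.0775). The tax-6 null array nearest to WT, replicate 1, was the one that stood apart across the array. Without it the log2 change in tax-6 null was 0.46 and passed (adjusted p = 0.0166), as did the difference of aak-2 o/e from WT (-0.36, adjusted p = 0.0323). Without aak-2 o/e replicate 1 both passed as well (log2 changes of 0.32 and -0.51, adjusted p = 0.049 and 0.0179), and with array weights both passed (adjusted p = 0.00227 and 0.00526). In the other 17 of the 20 settings neither difference passed. There the limma adjusted p reached 0.272 for tax-6 null and 0.235 for aak-2 o/e. crh-1 null was lower than tax-6 null (-0.42 ± 0.15, 1.34-fold lower, adjusted p = 0.0419), a call that ended without any single one of 9 arrays: each WT and each crh-1 null array, tax-6 null replicates 2 and 3, and aak-2 o/e replicate 2 (limma adjusted p = 0.0518 to 0.143). That call was also lost without the filter, with only the strains compared and with the replicate block (limma adjusted p = 0.0797, 0.0674 and 0.0747). crh-1 null did not differ from WT past the threshold (-0.09 ± 0.15, limma adjusted p = 0.757). Against aak-2 o/e the change in crh-1 null was 0.27 ± 0.15 (limma adjusted p = 0.158), which passed only with array weights and without aak-2 o/e replicate 1 (limma adjusted p = 0.0136 and 0.0307).

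Of the calmodulin kinase genes, unc-43 alone was bright enough to test, and none of its 3 tested probe sets passed in any of the 6 comparisons. The gene table lists 18 RefSeq transcripts for it, which its 9 probe sets may sample differently. 175824_s_at read 8.99, 9.11 and 9.1 in crh-1 null and 8.97, 8.9 and 9.08 in tax-6 null. It read 8.92, 8.9 and 8.78 in aak-2 o/e, and 8.97, 9.28 and 8.77 in WT. The WT arrays spanned those of every other strain. 175821_s_at read 8.56, 8.35 and 8.79 in crh-1 null and 8.41, 8.63 and 8.51 in tax-6 null. Its values were 8.39, 8.67 and 8.41 in aak-2 o/e, and 8.89, 8.78 and 8.74 in WT. All tax-6 null and all aak-2 o/e arrays lay below WT there, with log2 changes of -0.28 ± 0.13 and -0.31 ± 0.13 that did not pass (limma adjusted p = 0.0998 and 0.0892). The dimmest, 193463_s_at, ranged from 3.98 to 4.63. It passed only with array weights, as higher in crh-1 null than in tax-6 null (log2 change 0.43, adjusted p = 0.0301).

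**Figure D3:**
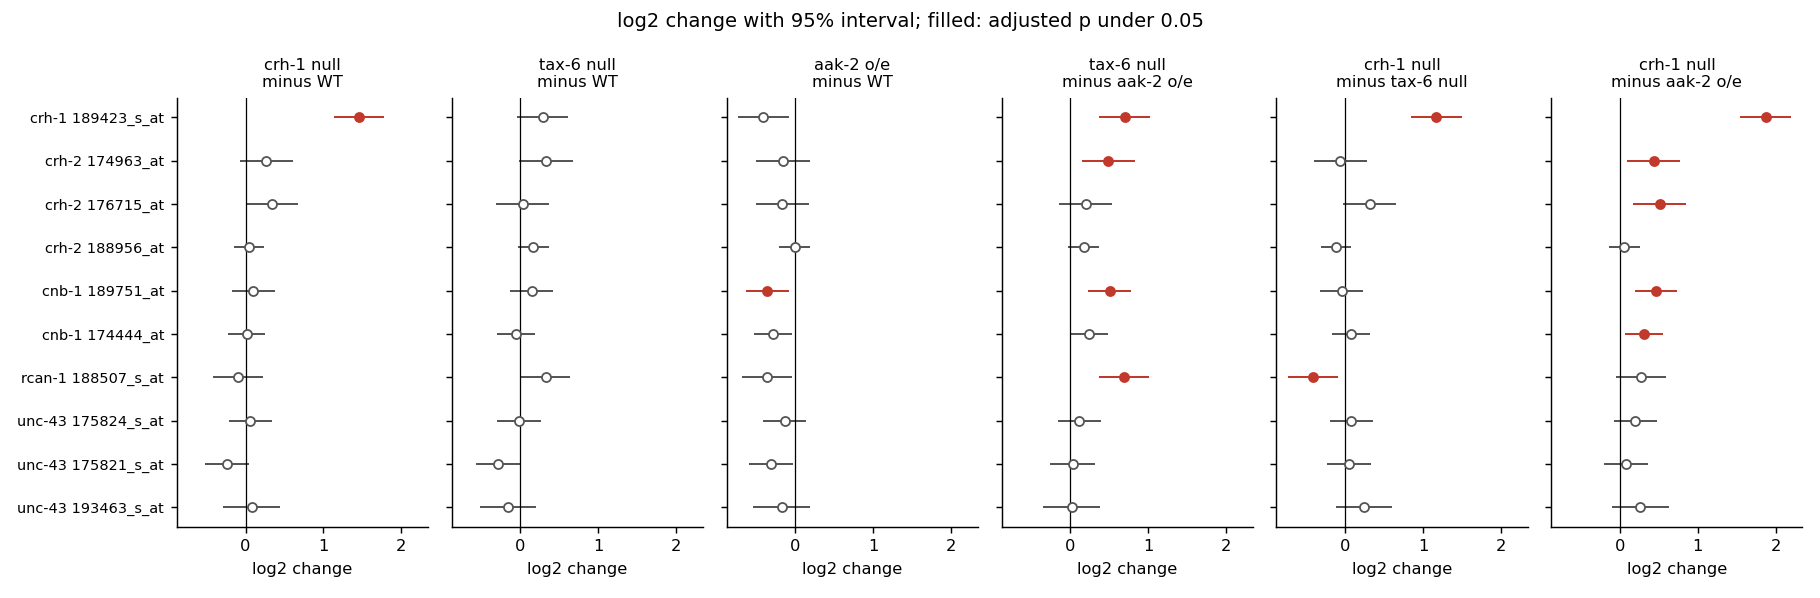
Log2 change (horizontal axes) of the 10 tested member probe sets in the 6 comparisons, first-named strain minus second, with 95% intervals from limma. Filled red points passed an adjusted p of 0.05. crh-1 has the largest changes, up to 1.87, and the unc-43 points are open in every panel.

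Counted over the 10 tested probe sets, few passed against WT. In crh-1 null 1 was higher and 0 lower, where 19.8% of all 13396 probe sets tested passed (9.53% higher, 10.2% lower). In tax-6 null 0 passed by limma, against 43.8% of all (17.9% higher, 25.9% lower), and 1, rcan-1, had an unadjusted p under 0.05. In aak-2 o/e 0 were higher and 1 was lower, against 31.9% of all (13.6% higher, 18.3% lower). The arrays did not overlap with WT for 3 of the 10 in crh-1 null, 4 for tax-6 null and 5 for aak-2 o/e, where 41.8%, 53.6% and 50.6% of all probe sets did not. The median absolute log2 change was 0.1 for members and 0.19 for all in crh-1 null, 0.16 and 0.36 in tax-6 null, and 0.24 and 0.29 in aak-2 o/e. The 3 comparisons share the WT arrays. Since the 10 probe sets belong to 5 genes, they are not independent of each other.

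Direct contrasts of the altered strains gave more calls. Set against aak-2 o/e, tax-6 null had 4 higher and 0 lower, and 48.1% of all passed (26.1% higher, 22% lower). Set against aak-2 o/e, crh-1 null had 5 higher and 0 lower, and 44.3% of all passed (26.1% higher, 18.1% lower). Set against tax-6 null, crh-1 null had 1 higher and 1 lower, and 36.7% of all passed (21.1% higher, 15.6% lower). In the same order, the strains' arrays were fully separated for 6, 7 and 2 of the 10 (54.3%, 57.8% and 48.6% of all). Counted in both directions, the members' calls were near the background or below it. Higher calls alone were 4 and 5 of 10 against aak-2 o/e, beside 26.1% of all probe sets in each contrast. On leaving out single arrays, the member calls ranged from 3 to 4 in tax-6 null and from 2 to 5 in crh-1 null. With 10 probe sets of 5 genes, and the aak-2 o/e arrays shared by both contrasts, the difference from the share of all was not tested.

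The lowest mean of the 4 strains belonged to aak-2 o/e for all 10 tested probe sets, as it did for 39.5% of all probe sets tested. With quantile normalization this held for 8 of the 10, and with arrays centred on their medians for 9. Some of the 10 were near ties. crh-2 188956_at averaged 5.96 in aak-2 o/e and 5.97 in WT. For unc-43, 193463_s_at averaged 4.31 in aak-2 o/e and 4.33 in tax-6 null, and 175821_s_at 8.49 and 8.52. The median log2 change, aak-2 o/e minus WT, was -0.24 over the members and -0.14 over all probe sets. The highest mean belonged to crh-1 null for 5, to tax-6 null for 4, to WT for 1 and to aak-2 o/e for 0 of the 10. The median SD of the 10 was 0.11 for crh-1 null, 0.15 for tax-6 null, 0.21 for aak-2 o/e and 0.08 for WT, against 0.13, 0.2, 0.17 and 0.13 over all.

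Neuronal marker genes differed between the strains as well. Of 12 tested, 5 were higher in crh-1 null and 7 in tax-6 null, with none lower, while in aak-2 o/e 5 were lower and 0 higher. Over all probe sets tested, 9.53% were higher and 10.2% lower in crh-1 null, 17.9% and 25.9% in tax-6 null, and 13.6% and 18.3% in aak-2 o/e. The marker values, summed on the linear scale, ranged from 11300 to 11400 in crh-1 null, 13800 to 16000 for tax-6 null, 7320 to 8340 for aak-2 o/e and 9790 to 10100 for WT, with no overlap between strains. Such sums weigh the brightest genes most. Gene by gene, crh-1 null had 2 markers higher and 3 lower than tax-6 null (egl-21, sbt-1 and egl-3), with a median log2 change of 0.03. The synaptic vesicle gene rab-3 was higher in crh-1 null (0.66 ± 0.1), the neuropeptide processing gene egl-3 was higher in tax-6 null (1.3 ± 0.16), and the SNARE gene ric-4 was lower in aak-2 o/e (-0.66 ± 0.11). The part of these shifts in the levels of crh-1, crh-2, cnb-1 and rcan-1 was not tested.

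Markers of other tissues moved as well, and their counts are to be set beside the same shares of all probe sets. Germline and sperm markers gave 6 higher and 0 lower of 9 in aak-2 o/e, with sums of 27400 to 29500 for aak-2 o/e, against 15400 to 17100 for WT. In crh-1 null 0 were higher and 2 lower, and in tax-6 null 2 were higher and 1 lower. Body wall muscle markers gave 0 higher in any strain, and of 9 tested 0 were lower for crh-1 null, 3 for tax-6 null and 2 for aak-2 o/e. Epidermal markers, which include rol-6, the gene of the transgene marker, gave 4, 3 and 3 of 7 lower and 1, 1 and 0 higher, and intestinal markers 1, 2 and 1 of 6 lower and 2, 1 and 0 higher. Of the adult cuticle markers, bli-2 was lower in all 3 strains, and col-19 was higher in tax-6 null (7.63 ± 0.33) and also in aak-2 o/e (5.36 ± 0.33). The AFD gene ttx-1 was higher in tax-6 null (0.7 ± 0.22, adjusted p = 0.0225). The part of tissue makeup or developmental timing in the members' levels was not tested.

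Genes that work with CREB, calmodulin and calcineurin were counted beside the set, each gene by its brightest tested probe set. No list was tested against the shares of all probe sets. These were 9.53% higher and 10.2% lower in crh-1 null, 17.9% and 25.9% in tax-6 null, and 13.6% and 18.3% in aak-2 o/e. Of 12 calmodulin and calcineurin partners, 2 were higher and 2 lower in crh-1 null, 3 higher and 1 lower in tax-6 null, and 0 higher and 2 lower in aak-2 o/e (median log2 change 0.18, 0.02 and -0.14, against -0.01, -0.09 and -0.14 over all probe sets). cnp-2, named as a calcineurin-interacting protein gene, fell to a mean of 5.89 in crh-1 null, against 9.28 in WT, a log2 change of -3.4 ± 0.23 (adjusted p = 5.91e-07). The calmodulin-like gene cal-2 rose in crh-1 null (0.71 ± 0.16) and in tax-6 null (1.26 ± 0.16), and calu-1, which encodes the calcium-binding protein calumenin, fell in tax-6 null (-1.01 ± 0.12) and, by less, in aak-2 o/e (-0.44 ± 0.12). Of 11 CRTC and CREB partners, none passed in crh-1 null, where the median was 0.18, against -0.01 over all probe sets. In tax-6 null the 14-3-3 gene par-5 alone passed (-0.36 ± 0.09, adjusted p = 0.00656), with a list median of -0.2 against -0.09 over all. In aak-2 o/e 4 fell and 0 rose, with a median of -0.26 against -0.14 over all. Among the 4 were the adenylyl cyclase gene acy-1 (-0.6 ± 0.2), the transcription factor gene mef-2 (-0.6 ± 0.17) and the salt-inducible kinase gene kin-29 (-0.48 ± 0.12). The coactivator gene crtc-1 had no probe set of its own.

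Relatives of the members by protein class were counted in the same way, beside the same background shares, and no list was tested against them. Of 20 other bZIP factor genes, 4 rose and 0 fell in crh-1 null, 7 rose and 3 fell in tax-6 null, and 1 rose and 3 fell in aak-2 o/e (median 0.15, 0.14 and -0.04). atf-8 rose in crh-1 null (1.37 ± 0.14) and fell in aak-2 o/e (-1.43 ± 0.14), and zip-10 rose in tax-6 null (2.41 ± 0.25). Of 14 kinases of the CaM kinase group, 1 rose in crh-1 null, 1 rose and 1 fell in tax-6 null, and 1 rose and 5 fell in aak-2 o/e (median -0.07, -0.17 and -0.35). The MAP kinase-interacting kinase gene mnk-1 fell in tax-6 null (-2.05 ± 0.23) and rose in aak-2 o/e (0.81 ± 0.23), while mak-1 fell in aak-2 o/e (-1.51 ± 0.21). Of 11 catalytic subunits of other serine/threonine phosphatases, 0 rose and 1 fell in crh-1 null, 1 rose and 6 fell in tax-6 null, and 2 rose and 4 fell in aak-2 o/e (median -0.21, -0.47 and -0.14). The protein phosphatase 1 gene gsp-1 fell in crh-1 null (-0.44 ± 0.12) and tax-6 null (-0.75 ± 0.12). The genes that rose in aak-2 o/e were gsp-4 (1.9 ± 0.16) and gsp-3 (1.71 ± 0.14), sperm-specific forms of protein phosphatase 1 with near-identical sequences, in the strain where germline and sperm markers were higher. Of 10 AMPK subunit and upstream genes, 0 rose and 1 fell in crh-1 null (aakb-1, -0.7 ± 0.13), 2 rose and 0 fell in tax-6 null (aakg-4 and aakg-5), and 0 rose and 1 fell in aak-2 o/e (aakb-2, -0.49 ± 0.14), with medians of -0.08, 0.05 and -0.23.

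**Figure D4:**
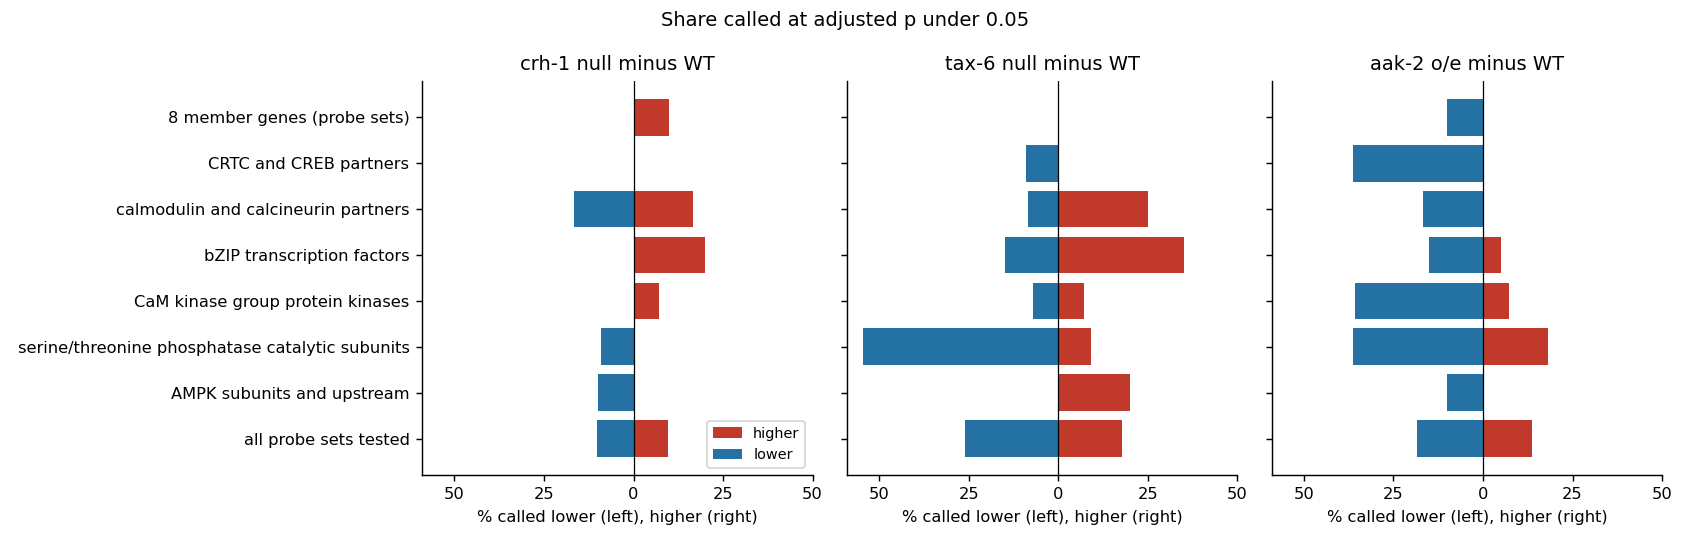
Share of each list called at a limma adjusted p under 0.05 against WT, in percent, with lower calls to the left of 0 and higher calls to the right. The lists are counted per gene, the members and the bottom bars per probe set. Of 10 tested members, 1 was called for crh-1 null, 0 for tax-6 null and 1 for aak-2 o/e.

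The array pattern most like that of crh-1, by Pearson correlation over the 12 arrays among 4146 probe sets of other genes whose strain means spanned at least 1, was that of dhs-4, a short-chain dehydrogenase gene (r = 0.97). dhs-4 averaged 9.02 for crh-1 null, 7.57 for tax-6 null, 6.57 for aak-2 o/e and 7.38 for WT. cutl-16, a cuticlin-like gene (r = 0.963), and K11H12.7 (r = 0.962) followed. For rcan-1 the nearest were B0546.4 (r = 0.912), the Atg8-family gene lgg-2 (r = 0.909) and hic-1 (r = 0.903), all highest in tax-6 null and lowest in aak-2 o/e. lmp-2, C09G9.5 and zzz-1 were nearest to cnb-1 by 189751_at (r = 0.964, 0.961 and 0.959), and the Hox gene lin-39, spig-13 and the protein phosphatase 1 gene gsp-2 by 174444_at (r = 0.898, 0.881 and 0.875). The probe sets of cnb-1 shared none of their 3 nearest genes, and nor did those of crh-2. By 174963_at the nearest to crh-2 were H06I04.6, nhr-34 and pan-1 (r = 0.919, 0.905 and 0.9). By 176715_at they were the pharyngeal myosin gene myo-2, srd-53 and ncx-2 (r = 0.923, 0.896 and 0.895). With only 3 genes kept from 4147 probe sets, this does not tell whether the probe sets of a gene agree. These correlations describe 12 arrays of 4 strains that share 1 normalization, and differences between strains make up much of them.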

How the data were processed

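The authors deposited 1 table of log2 values. The submitters' processing notes name GCOS 1.4 and GCRMA, without settings. GCRMA corrects background, normalizes arrays and compresses dim probe sets: 29.8% of values lay within 0.1 of the lowest, 2.11. Per the labels' protocols, RNA was prepared together 12 hours before the arrays, and replicate pools on separate days. Gene names came from the platform annotation, updated by gene ID (WBcel235 gene table). Non-control probe sets with a log2 value of at least 4 on 3 or more arrays were tested (13396).

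limma 3.58.1 in R 4.3.3 (lmFit, eBayes; 1 mean per strain over 12 arrays, two-sided, Benjamini-Hochberg over all probe sets tested, threshold 0.05) gave 8 residual and 3.63 prior degrees of freedom; errors of changes are SE, and all adjusted p-values come from it. It was tested on simulated data of independent normal values with 200 changed probe sets in crh-1 null. These lacked the repeated values and the unequal spreads of the strains, so that test does not vouch for the calls. Arrays limit precision by their number. Same-numbered replicates did not deviate together (r = -0.249 to 0.138), so numbers were not treated as pairs. From lists, the 3 called members with the largest change per strain could be named; likeness took the 3 most correlated genes per called probe set. Members and lists were chosen with earlier results of these data known.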

Additional observations from a re-analysis of the deposited data

How the results depend on the processing

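Over 20 alternatives, the 60 changes of the tested member probe sets gave 1194 values, of which 0 reversed a call, 57 lost one and 19 gained one. Of 13 calls, 7 held in every setting: crh-1 in 4 comparisons, cnb-1 189751_at in 2 and rcan-1 in 1. Against WT, the number of member probe sets called in crh-1 null was 2 with array weights and 1 to 1 on leaving out single arrays. In tax-6 null, where the count was 0, it was 1 without the filter on dim probe sets, 2 with array weights and 0 to 1 on leaving out single arrays, with 1 without the first tax-6 null array or the first aak-2 o/e array. In aak-2 o/e, where the count was 1, it was 0 with quantile normalization, median centring, no filter or only the strains compared, 3 with array weights and 0 to 3 on leaving out single arrays, with 3 without tax-6 null replicate 1. With the replicate block it was also 1, but crh-1 had passed (adjusted p = 0.0397) and cnb-1 had not (adjusted p = 0.0735). For tax-6 null set against aak-2 o/e the range was 3 to 4. Between crh-1 null and tax-6 null it was 1 without the filter, with only the strains compared and with the replicate block, 3 with array weights, and 1 to 2 on leaving out single arrays. Between crh-1 null and aak-2 o/e it was 2 with only the strains compared and 2 to 5 on leaving out single arrays. Leaving out an array of a strain outside a comparison left the log2 change as it was and altered only the p-value. For rcan-1, crh-1 null minus tax-6 null, the change stayed at -0.42 without any single WT array, while the call was lost. The cause of the other shifts was not tested. Whether a replicate number stands for the same day in all strains is not known here, so calls lost or gained under the block are given without a reading. Over all probe sets, leaving out single arrays gave 1878 to 3279 calls in crh-1 null, 5028 to 5995 in tax-6 null and 3316 to 5367 in aak-2 o/e against WT. It gave 5734 to 6389 for tax-6 null against aak-2 o/e, 3915 to 5122 between crh-1 null and tax-6 null, and 4903 to 6764 between crh-1 null and aak-2 o/e. Little can be said of tax-6, cmk-1 and ckk-1, since no probe set of these genes passed the filter.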

Other observations

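Values of some member probe sets repeated across arrays at levels well above the lowest of the table. The crh-2 probe set 176715_at lay within 0.02 of 6.52 on 6 of 12 arrays, and ckk-1 188081_at within 0.02 of 3.88 on 9. Over all probe sets tested, a run of 6 or more arrays within 0.02 of a common value was seen in 24% of the 1176 probe sets with a mean between 4 and 5, 5.57% of the 2010 between 6 and 7, and 1.18% of the 3728 between 8 and 10. Small spreads of such probe sets describe the deposited values, and what sets the repeated value was not tested.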
